A study of Hordeum vulgare with 24 samples.

Results

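Young barley spikes mutant for HvMADS1 were compared with wild-type spikes at Waddington stage W3.5 under the cooler of the study's growth regimes. These 6 RNA-sequencing libraries, 3 of mads1 and 3 of wild type (WT), are 6 of the 24 in the series and were taken by their genotype, temperature and stage labels. All plants were of the cultivar Golden Promise, and the mads1 plants carried a mutation in HvMADS1, of a kind that the labels do not state. The groups were mads1 and WT at W3.5 under day and night temperatures of 15 and 10 °C (LT), and the same genotypes at LT W2.5 and, under 25 and 20 °C (HT), at W3.5 and W2.5. Each library pooled 15 to 20 spikes and is 1 of 3 biological replicates of its group. Neither the hour of sampling nor the number of mutant lines is given.

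HvMADS1 is a MADS-box transcription factor of the SEPALLATA group. These proteins join other MADS-box proteins in complexes that set the identity of floral meristems and floral organs. In rice the related gene OsMADS1 is known for its role in forming the lemma and palea and in ending the growth of the floret meristem. The barley spike is unbranched, and on the Waddington scale W2.5 is the stage of glume primordia and W3.5 that of stamen primordia.

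The deposited values were read counts for 39734 gene identifiers, of which 14869 had no read in any of the 6 libraries. Library totals ran from 16210220 to 17492428 counted reads in mads1 and from 16715770 to 19836860 in WT. Over a group, 3 counts came to 0.0613 CPM (counts scaled to library size) in mads1 and 0.0539 CPM in WT. This is the floor used here for a gene with no read, and it covers counting error only. Neither the count tables nor the reference table pair these identifiers with gene names. The names below come from published barley gene identifiers as they are known from the field and were not checked by sequence.

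The mads1 libraries were less alike than the WT libraries. Spearman correlations of counts ran from 0.982 to 0.995 within mads1 and from 0.9962 to 0.9969 within WT, against 0.972 to 0.986 between the genotypes. Replicate 1 of mads1 stood farthest from its group mates, at a median absolute log2 distance of 0.205, with 0.105 and 0.173 for replicates 2 and 3. The same distance was 0.0794 to 0.0900 in the WT libraries. Counts below are therefore also given without mads1 replicate 1. For the labelled tissue, 4 genes active in young spikes were looked at, VRS1, HvMADS14, HvMADS15 and HvMADS34. All 4 were read in every library. Their summed level, most of it from HvMADS14, was 484, 580.4 and 571 CPM in mads1 and 503, 508 and 506 CPM in WT. Genes of other tissues were not examined, so these reads cannot show whether other tissue was present.

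HvMADS1 (HORVU4Hr1G067680), the mutated gene, was still transcribed in the mutant spikes. It stood at 44.3, 46.7 and 50.4 CPM in mads1 replicates 1 to 3, against 58.1, 64.7 and 64.3 CPM in WT. Every mads1 library was lower than every WT library, and the log2 fold change was -0.40 (SE 0.08, edgeR's adjusted p = 0.015). A gene is called higher or lower here where this p, adjusted over all genes tested, is under 0.05. Fewer cells with a transcript and less transcript per cell cannot be told apart in such pooled tissue. The call was lost without mads1 replicate 2 (edgeR's adjusted p = 0.0795) and without WT replicate 2 or 3 (0.0798 and 0.0853). It was also lost with the spread taken from all 24 libraries of the series (edgeR's adjusted p = 0.947) or from 23 of them, without WT replicate 3 at HT W2.5 (0.632). Because the kind of mutation is not given, a transcript that remains does not speak for or against the label.

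**Figure D1:**
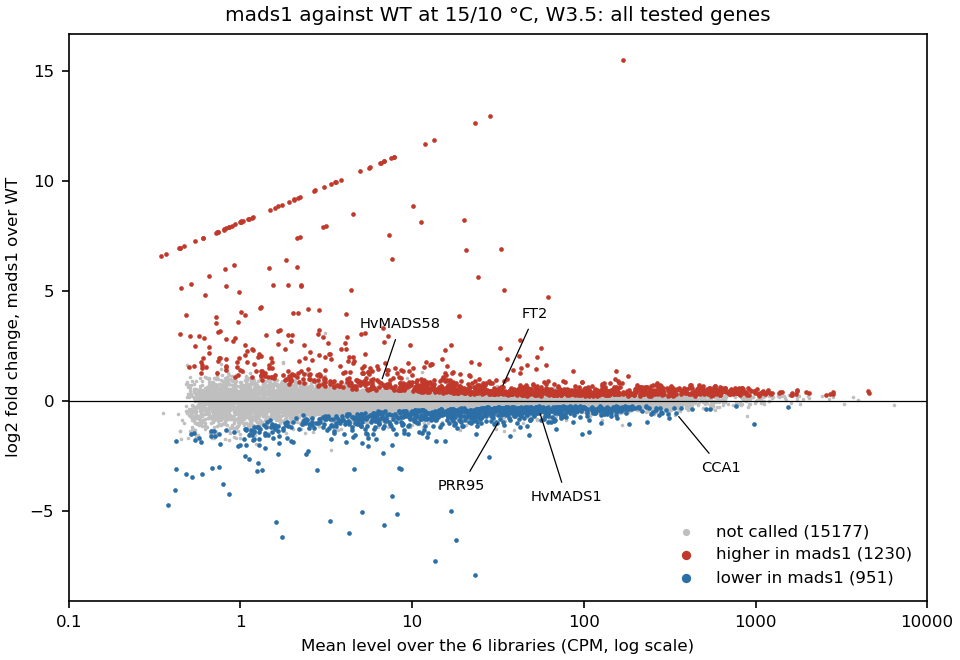
Log2 fold change of mads1 over WT (vertical axis) against the mean level of each gene in the 6 libraries (CPM, log axis), with 1 point per tested gene. Red points mark the 1230 genes called higher in mads1, blue points the 951 called lower, and grey points those not called. The straight rising row of red points holds genes with no WT read, whose fitted fold change depends on a small added count.

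Differences between the genotypes were many and mostly small. Of 17358 genes with enough reads to be tested, 2181 were called by edgeR (12.6%). In mads1, 1230 of them were higher (7.09%) and 951 were lower (5.48%). The median absolute log2 fold change of the called genes was 0.54, and 489 differed by at least 2-fold, with 298 higher and 191 lower. The median over all tested genes was -0.01. In 6168 genes (35.5%) no mads1 library overlapped a WT library, and 2178 of the 2181 called genes were among them.

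How many genes passed rested on single libraries. Without mads1 replicate 1 the test called 7276 genes, 3626 higher and 3650 lower. Without mads1 replicate 2 it called 694. Leaving out WT replicate 1, 2 or 3 gave 640, 719 and 613. The split between directions depended on the scaling. TMM factors scale the libraries to each other by their typical gene. With library totals alone, 992 genes were higher and 1409 lower, so that 41.3% of the calls were higher, against 56.4% with TMM factors.

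Among the largest differences most genes were higher in mads1. Of the 1196 called genes that differed by less than 1.5-fold, 692 were higher and 504 were lower. Between 1.5 and 2-fold the directions were nearly even, with 240 higher and 256 lower, as they were between 2 and 4-fold, with 139 and 151. Among the 87 genes between 4 and 16-fold, 62 were higher and 25 lower. Over 16-fold there were 97 higher and 15 lower genes. Of these 112, 60 had no read in WT, and none had no read in mads1. The 199 genes that differed by at least 4-fold mostly stayed called, with 180 to 199 of them passing when 1 library was left out.

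Among the most abundant transcripts the called genes were mainly higher in mads1. Among the 2247 genes with a mean over 100 CPM, 375 were called higher and 108 lower (21.5% of those tested), with a median absolute log2 fold change of 0.41. Between 10 and 100 CPM, 496 genes were higher and 566 lower (11.7%). Between 1 and 10 CPM, 292 were higher and 251 lower (10.8%), and under 1 CPM 67 were higher and 26 lower (9.11%). The lean of the most abundant genes kept its direction with library totals only, at 303 higher and 188 lower, and without mads1 replicate 1, at 868 and 619. The size of a called difference moved with depth, and the median absolute log2 fold change of called genes under 1 CPM was 2.97. The 100 most abundant genes took 15.4 to 16.8% of the reads in mads1 and 14.5 to 14.8% in WT. The part of these shares in the result was not tested.

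Among the floral regulators of the MADS-box family, HvMADS58 was the member called higher in mads1 and HvMADS1 the member called lower. The list held 15 genes, and all were tested. Their median log2 fold change was 0.14, against -0.01 for all genes, and 11 of the 15 values were above 0, against 8354 of the 17358 over all genes. The share called over all genes was 7.09% higher and 5.48% lower. DESeq2 called 2 higher and 1 lower. Without mads1 replicate 1, 9 members were called higher and 1 lower, without mads1 replicate 2 or WT replicate 2 or 3 none was, and without WT replicate 1 only HvMADS1 was. In the fit without mads1 replicate 1, 20.6% of all genes were called higher and 20.7% lower. Counts per length (FPKM) gave the order of the genes. HvMADS14 was the highest, at 397 ± 45.8 FPKM in mads1 and 395 ± 6.10 FPKM in WT (SD, n = 3 each). HvMADS58 was the lowest in WT, at 9.59 ± 2.11 FPKM in mads1 and 5.60 ± 0.607 FPKM in WT.

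**Figure D2:**
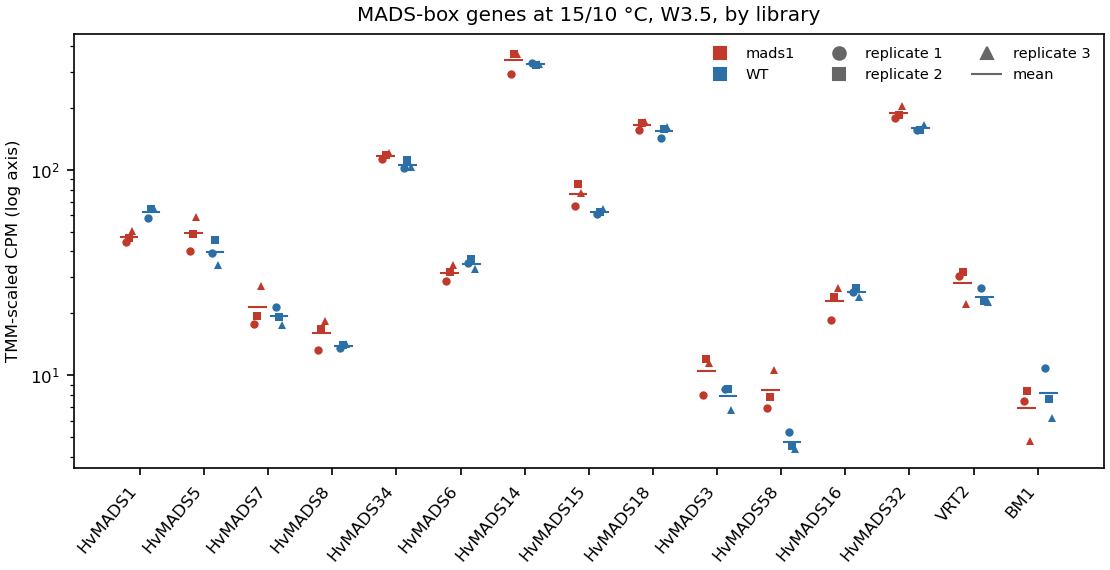
Level of the 15 MADS-box genes (TMM-scaled CPM, log axis) in each library, mads1 in red and WT in blue. Symbols mark replicates 1 to 3 and short lines the mean of 3 libraries. The mads1 and WT libraries are wholly apart for HvMADS1 (lower in mads1) and for HvMADS15, HvMADS32, HvMADS34 and HvMADS58 (higher in mads1). Over all tested genes, 35.5% were apart in this way. Replicate 1 is the lowest mads1 library for every gene but VRT2 and BM1.

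HvMADS58 (HORVU1Hr1G029220) is of the AGAMOUS group, whose members specify stamens and carpels. It stood at 6.88, 7.84 and 10.5 CPM in mads1, against 5.30, 4.50 and 4.39 CPM in WT. The groups did not overlap, and the log2 fold change was 0.83 (SE 0.18, edgeR's adjusted p = 0.022). The call was lost without mads1 replicate 2 or any 1 of the 3 WT libraries (edgeR's adjusted p up to 0.104), and with the spread from 24 or 23 libraries (0.535 and 0.0597). The other AGAMOUS-group gene, HvMADS3 (HORVU3Hr1G026650), read 8.03, 11.95 and 11.4 CPM in mads1 and 8.55, 8.52 and 6.75 CPM in WT. Its groups overlapped through mads1 replicate 1, and it was not called (0.40, edgeR's adjusted p = 0.16).

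None of the other SEPALLATA genes passed edgeR's test. Of the 15 MADS-box genes, 5 were at an unadjusted p under 0.05, against 5365 of all 17358 genes tested. HvMADS5 (HORVU7Hr1G025700) stood at 40.4, 48.5 and 59.0 CPM in mads1 and 39.5, 45.3 and 34.3 CPM in WT. HvMADS34 (HORVU5Hr1G095710), which with HvMADS1 and HvMADS5 forms the LOFSEP branch of the group, read 113, 118 and 120.1 CPM in mads1 and 103, 112 and 103 CPM in WT. Its libraries did not overlap, by a margin of less than 1 CPM, and the log2 fold change was 0.14 (SE 0.07, edgeR's adjusted p = 0.19). HvMADS7 (HORVU7Hr1G054220) and HvMADS8 (HORVU5Hr1G076400), the barley members closest to SEPALLATA3, overlapped between genotypes. HvMADS7 read 17.7, 19.4 and 27.2 CPM in mads1 and 21.5, 19.3 and 17.5 CPM in WT. HvMADS8 read 13.2, 16.8 and 18.3 CPM in mads1 and 13.5, 14.0 and 14.2 CPM in WT.

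The AGL6-group gene HvMADS6 (HORVU6Hr1G066140), a regulator of floret organs in grasses, stood at 28.7, 31.7 and 34.4 CPM in mads1 and 35.2, 36.7 and 32.7 CPM in WT. The ranges overlapped, and the log2 fold change of -0.14 did not pass (SE 0.09, edgeR's adjusted p = 0.32). The APETALA1 group, which promotes the change to flowering and floral meristem identity, had 3 members. HvMADS14 (HORVU5Hr1G095630, the vernalization gene VRN1) read 294, 368 and 366 CPM in mads1 and 331, 325 and 328 CPM in WT. HvMADS15 (HORVU2Hr1G063800) read 66.8, 84.9 and 76.8 CPM in mads1 and 60.9, 62.0 and 64.3 CPM in WT. HvMADS18 (HORVU0Hr1G003020) read 157, 169 and 171 CPM in mads1 and 143, 157 and 161 CPM in WT. HvMADS15 alone of the 3 had libraries that did not overlap, at a log2 fold change of 0.29 (SE 0.09, edgeR's adjusted p = 0.0745).

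Among the remaining members, HvMADS32 (HORVU3Hr1G068900), of a clade known for floral organ functions in rice, had the second highest level per length. It read 179, 185 and 205 CPM in mads1 and 157, 156 and 166 CPM in WT. Its libraries were apart, and the test narrowly missed the threshold (log2 fold change 0.25, SE 0.07, edgeR's adjusted p = 0.057). HvMADS16 (HORVU7Hr1G091210), which acts in stamens and the grass counterparts of petals, and BM1 (HORVU4Hr1G077850) and VRT2 (HORVU7Hr1G036130), of the SVP group, overlapped between the genotypes. Their log2 fold changes were -0.14, -0.25 and 0.22.

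Genes that set the row type of the spike did not pass the test. The 4 members had a median log2 fold change of 0.00499. By edgeR 0 were called, against 12.6% of all genes tested. At an unadjusted p under 0.05 there were 2, against 5365 of all 17358 genes. DESeq2 called 1 (VRS2), as did edgeR without mads1 replicate 1. With 4 genes, nothing is read from these counts. VRS2 (HORVU5Hr1G081450), an SHI-type regulator of lateral spikelet fertility, read 51.3, 53.4 and 63.3 CPM in mads1 and 40.0, 44.7 and 48.8 CPM in WT. Every mads1 library was higher than every WT library (0.33, SE 0.11, edgeR's adjusted p = 0.073). VRS4 (HORVU3Hr1G016690), the barley counterpart of maize RAMOSA2, was lower in all mads1 libraries. It read 17.8, 20.6 and 22.2 CPM in mads1 and 24.1, 24.5 and 22.6 CPM in WT (-0.23, SE 0.10, edgeR's adjusted p = 0.15). VRS1 (HORVU2Hr1G092290), which holds back the lateral spikelets, and INT-C (HORVU4Hr1G007040), of the TEOSINTE BRANCHED1 group, overlapped. VRS1 read 10.2, 9.17 and 7.45 CPM in mads1 and 8.44, 9.82 and 11.2 CPM in WT.

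Of the clock and flowering-time genes, CCA1 and PRR95 fell in mads1 and FT2 rose. Of 14 list members 12 were tested, 1 was called higher and 2 were called lower, and 3 of the 12 log2 fold changes were above 0. Over all genes tested 7.09% were called higher and 5.48% lower, and 8354 of 17358 values were above 0. The median was -0.22, against -0.01 for all genes. Without mads1 replicate 1, 8 members were called lower and 1 higher, where 20.7% of all genes were called lower and 20.6% higher. Without mads1 replicate 2 or WT replicate 2 none was called. Many of these genes cycle through the day in plants, and the hour at which each library was sampled is not given, so hour and genotype cannot be told apart.

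**Figure D3:**
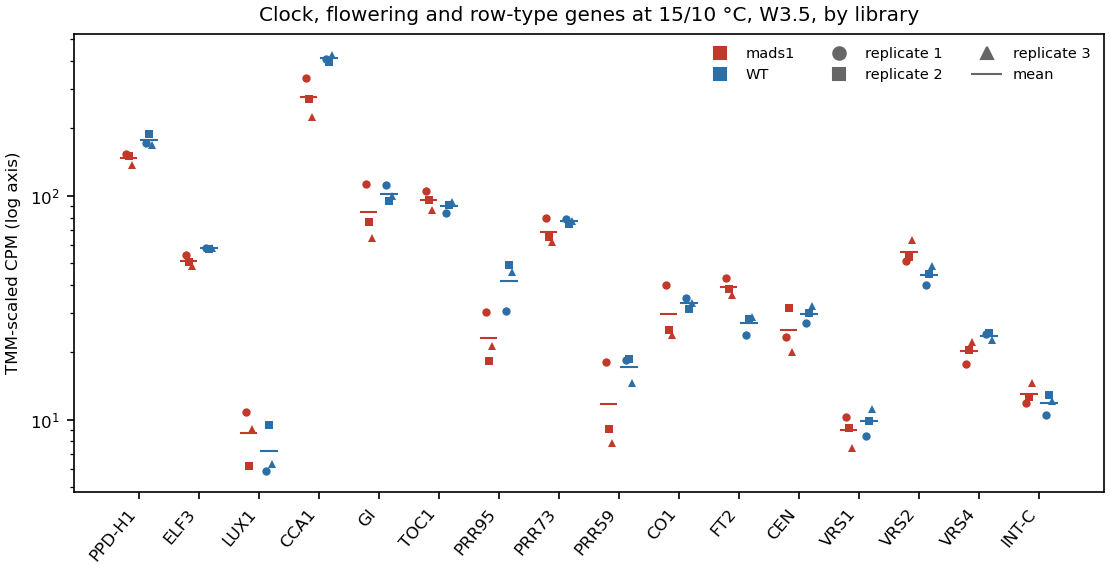
Level of 12 clock and flowering genes and of the 4 row-type genes (TMM-scaled CPM, log axis) in each library, mads1 in red and WT in blue. Symbols mark replicates 1 to 3 and short lines the mean of 3 libraries. In CCA1, GI, PRR73, PRR59 and CO1, among others, mads1 replicate 1 is the highest mads1 library and lies nearest to the WT libraries or above them.

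CCA1 (HORVU7Hr1G070870), a MYB transcription factor of the morning loop of the clock, had the highest count of the list. It stood at 338, 271 and 225 CPM in mads1, against 409.7, 396 and 428 CPM in WT. All mads1 libraries were below all WT libraries, and the log2 fold change was -0.57 (SE 0.13, edgeR's adjusted p = 0.025). PRR95 (HORVU5Hr1G081620), a pseudo-response regulator, read 30.1, 18.2 and 21.4 CPM in mads1 and 30.7, 48.9 and 45.6 CPM in WT. The groups were apart by less than 1 CPM, between mads1 replicate 1 and WT replicate 1, and the log2 fold change was -0.84 (SE 0.21, edgeR's adjusted p = 0.034). The CCA1 call was lost without mads1 replicate 2 or any 1 WT library (edgeR's adjusted p up to 0.109). That of PRR95 was lost without mads1 replicate 2 or 3 or WT replicate 2 or 3 (edgeR's adjusted p up to 0.136), and with a robust fit of the spread (0.0604). With the spread from 24 libraries neither was called (0.136 for CCA1 and 0.110 for PRR95).

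FT2 (HORVU3Hr1G027590), of the FLOWERING LOCUS T family of mobile flowering signals, rose in mads1. It read 42.9, 38.3 and 36.1 CPM in mads1 and 23.96, 28.1 and 28.7 CPM in WT. The lowest mads1 library was above the highest WT library, and the log2 fold change was 0.54 (SE 0.10, edgeR's adjusted p = 0.012). The call was lost without mads1 replicate 2, WT replicate 1 or WT replicate 2 (edgeR's adjusted p = 0.0501, 0.0602 and 0.0504), and with the spread from 24 libraries (0.253). FT1 (HORVU7Hr1G024610), the best-known flowering signal of the family, had no read in the 6 libraries. CO2 (HORVU6Hr1G072620) had 2 to 5 reads in mads1 libraries and 3 to 4 in WT libraries and was not tested.

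Other members of the photoperiod pathway came near the threshold. PPD-H1 (HORVU2Hr1G013400), the main photoperiod gene of barley, read 154, 151 and 137 CPM in mads1 and 172, 189.9 and 168 CPM in WT. ELF3 (HORVU1Hr1G094980), of the evening complex of the clock, read 54.4, 50.5 and 48.8 CPM in mads1 and 58.7, 57.7 and 58.7 CPM in WT. In both genes all mads1 libraries were lower, with log2 fold changes of -0.26 (SE 0.08, edgeR's adjusted p = 0.056) and -0.19 (SE 0.07, edgeR's adjusted p = 0.11). PRR59 (HORVU4Hr1G021010) read 18.2, 9.11 and 7.89 CPM in mads1 and 18.6, 18.7 and 14.5 CPM in WT. Its groups overlapped through mads1 replicate 1. GI, TOC1, PRR73, LUX1, CO1 and CEN also overlapped, with log2 fold changes between -0.26 and 0.27.

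A set of 26 genes had at most 3 reads in WT at LT W3.5 and at least 5 CPM in mads1. No gene met the opposite description. The 26 stood at a median of 12.2 CPM in mads1 (5.34 to 339), and 22 of them had no WT read at all. Their summed level was 659, 734 and 744 CPM in the mads1 libraries, against 0.0541, 0.118 and 0.0986 CPM in the WT libraries. The gene HORVU2Hr1G031640 alone made up 292, 354 and 371 CPM of the mads1 sums. All mads1 libraries carried these transcripts, and their similar totals rest in large part on that gene. Their median length was 990.5 bases, against 1539.5 for all tested genes. They lay on all 7 chromosomes named in the identifiers, with 6 on chromosome 2H, 5 on 3H, 4 each on 6H and 7H, and 2 unplaced. What these genes encode is not annotated in the tables used here.

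**Figure D4:**
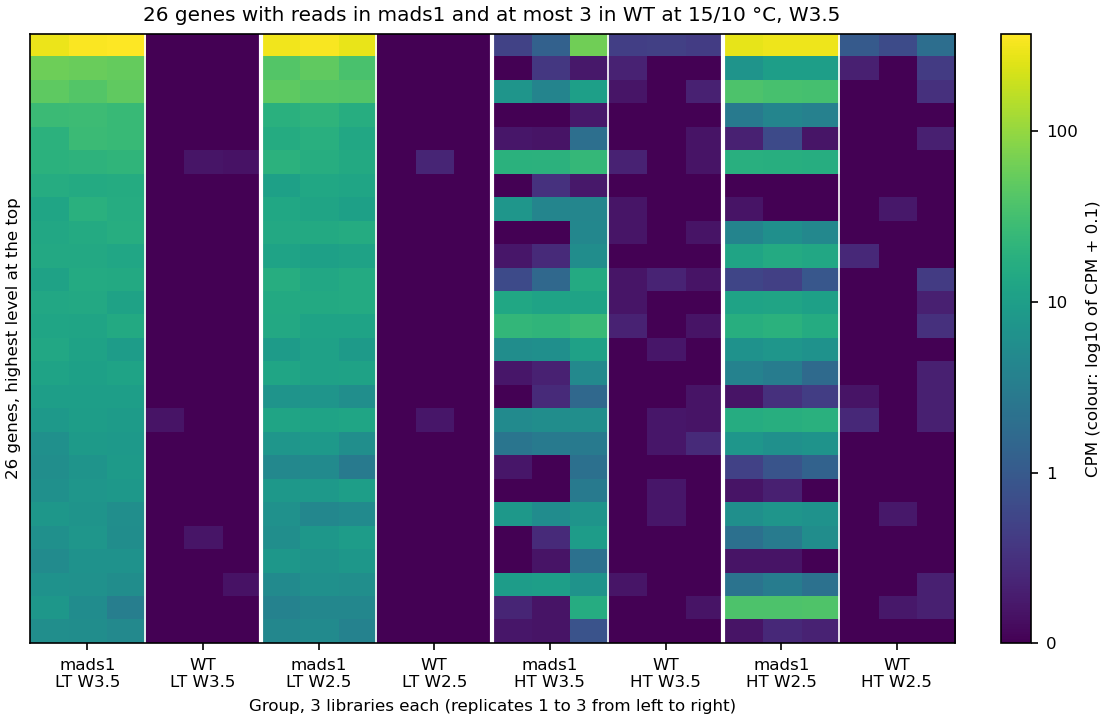
Level of the 26 genes (rows, the highest at the top) in all 24 libraries (columns, 3 per group), coloured by log10 of CPM + 0.1. All 6 mads1 libraries at 15/10 °C (LT) hold all 26 genes, no WT library holds more than 1 of them at 1 CPM, and the mads1 libraries at 25/20 °C (HT) hold 10 to 22.

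The other 18 libraries showed the same genes mostly by genotype. At 1 CPM or more, all 26 were present in each mads1 library at LT W2.5, where the summed level was 644, 681 and 587 CPM. In mads1 at HT W3.5, 10, 12 and 22 were present, with sums of 101, 94.5 and 238 CPM. In mads1 at HT W2.5, 17, 17 and 18 were present, with sums of 470, 508 and 495 CPM. In the warm regime the mutant libraries thus held part of the set. In WT, 1 gene in replicate 3 at HT W2.5 reached 1 CPM and no other did in any library, and the sums were 3.63 CPM or less. By the same limits of 3 reads and 5 CPM, 23 of the 26 were absent from WT and present in mads1 at LT W2.5, 10 at HT W3.5 and 9 at HT W2.5. In all 4 settings 6 genes were, and 2 genes were at LT W3.5 alone. These 2, HORVU2Hr1G077370 and HORVU4Hr1G071720, just missed the limit of 5 CPM at LT W2.5. They read 4.14 and 4.36 CPM in mads1 there, with 0 WT reads. Fewer of the 26 were thus present in mads1 at HT than at LT. The genes were chosen by their mads1 level at LT W3.5, which fixes this in part, and nothing is read from it about temperature. Replicate 3 of mads1 at HT W3.5 differed from its mates.

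The single identifiers with the largest differences illustrate both kinds of change. HORVU2Hr1G031640 read 292, 354 and 371 CPM in mads1, whereas WT had 0 reads. It was at least 6290-fold higher, taking 3 counts over the WT group as the floor. HORVU1Hr1G078880, the largest rise with at least 5 CPM in both genotypes, read 96.7, 68.6 and 56.0 CPM in mads1 and 11.4, 9.70 and 10.9 CPM in WT (log2 fold change 2.79, SE 0.19, edgeR's adjusted p = 5.5e-05). HORVU6Hr1G018030 had 1, 1 and 7 reads in mads1, at 0.0578, 0.0632 and 0.442 CPM, against 39.8, 49.3 and 50.0 CPM in WT (-7.92, SE 0.31, edgeR's adjusted p = 1.2e-06). Its reads were near 0 in all mads1 libraries. HORVU7Hr1G080070 read 5.72, 9.17 and 9.60 CPM in mads1 and 48.6, 46.9 and 49.1 CPM in WT (-2.57, SE 0.16, edgeR's adjusted p = 2.6e-05). The rule that chose the 4 required a call and libraries that did not overlap, so neither is read as a result. All 4 remained called in each of 17 other analyses, which draw on the same libraries.

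Called genes lay on every chromosome. By chromosome, 11.7% (3H) to 14.0% (1H) of tested genes were called, and 8.5% of unplaced ones. On chromosome 2H 56 of 2811 genes were called at 4-fold or more (1.99%), against 0.815 to 1.19% on the other chromosomes. In 332 stretches of 50 neighbouring tested identifiers the share called ran from 0 to 28%, with a median of 12%. Some stretches with many calls lay mostly in 1 direction, as in these 2, chosen after their values were seen. From HORVU2Hr1G024760 to HORVU2Hr1G026830, 14 of 50 genes were called and 1 of the 14 was higher in mads1. From HORVU6Hr1G017870 to HORVU6Hr1G022170, a stretch that holds HORVU6Hr1G018030, 25 of 100 genes were called and 3 of the 25 were higher. These positions are the order of identifiers, not base coordinates.

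Among genes that could be tested in another setting, larger differences at LT W3.5 were called again there more often. Larger differences pass a threshold more readily, and which genes could be tested fixes these shares in part. Nothing is therefore read from their rise. The other 3 comparisons of mads1 with WT share no library with that at LT W3.5. At LT W2.5, 574 genes were called (3.35%), at HT W3.5 1981 (11.5%), and at HT W2.5 1697 (9.78%). The last count leaves out WT replicate 3 at HT W2.5, a library that stood apart. With it, 64 were called (0.374%). Of the 2181 genes, 391 were called in the same direction at LT W2.5, which is 17.9% of the LT W3.5 list and 68.1% of the LT W2.5 list, and 4 were called in the opposite direction. At HT W3.5 the shared calls were 335, or 15.4% and 16.9% of the 2 lists, and 146 were opposite. At HT W2.5 they were 460, or 21.1% and 27.1%, and 112 were opposite. In all 3 other settings 144 genes had the same call, 107 higher and 37 lower. In none of them had 1477 (67.7%), 871 higher and 606 lower.

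**Figure D5:**
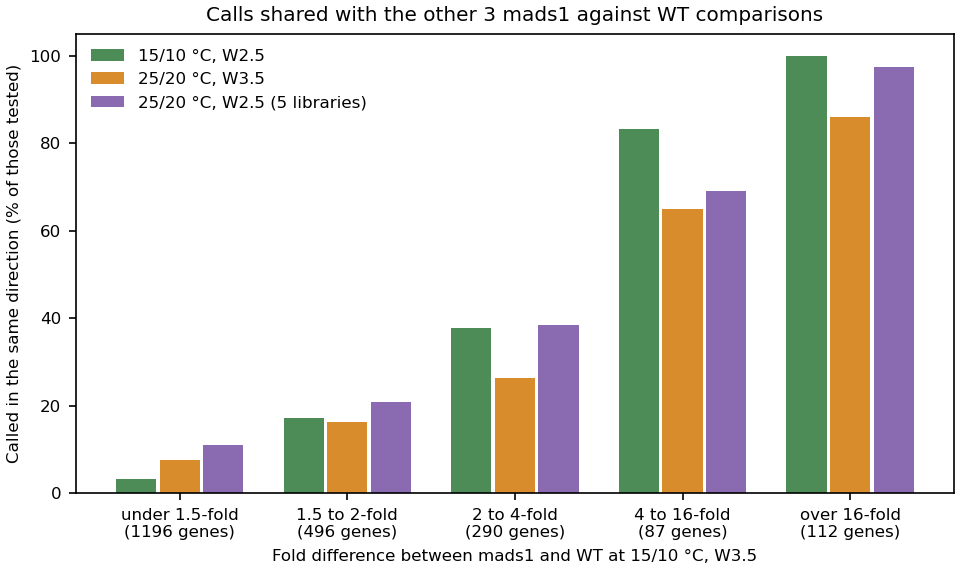
Share of the genes called at 15/10 °C, W3.5 that were also called in the same direction in each of the other 3 comparisons (percent of those tested there), by size of the fold difference at 15/10 °C, W3.5. Bars are 15/10 °C W2.5 in green, 25/20 °C W3.5 in orange and 25/20 °C W2.5 (5 libraries) in purple. The share rises with the fold difference in each comparison, to 100% at 15/10 °C W2.5 for the genes over 16-fold. Of these 112 genes, 101, 64 and 78 were tested in the 3 comparisons. Genes with no WT read are tested mainly through mads1 reads, which fixes these shares in part.

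Under 1.5-fold, 3.26% of the genes called at LT W3.5 had the same call at LT W2.5, 7.69% at HT W3.5 and 11.04% at HT W2.5. Over all genes 3.35%, 11.5% and 9.78% were called there, but those shares count both directions and are no like-for-like base. Same and opposite calls under 1.5-fold were 39 and 3 at LT W2.5, 92 and 96 at HT W3.5, and 132 and 64 at HT W2.5. Between 2 and 4-fold the shares with the same call were 37.8%, 26.5% and 38.5%. Over 16-fold, all 101 genes that could be tested at LT W2.5 had the same call at that earlier stage. At HT W3.5 only 64 of the 112 could be tested, and 55 of these had the same call (85.9%). At HT W2.5, 78 could be tested and 76 had it (97.4%). A gene with no WT read could be tested in another setting mainly through mads1 reads there. Being testable thus fixes these shares in part, and nothing is read from their height. In all 3 other settings 49 of the 112 had the same call (43.8%).

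Whether the mutant's difference changed between stages or temperatures was tested directly. Between W3.5 and W2.5 at LT, the genotype difference differed in 28 of 17760 genes (0.158%), and 21 of the 2181 called genes were among them. This count rested on single libraries: it was 1456 without mads1_LT_W3.5 replicate 1, 36 without WT_LT_W2.5 replicate 1, and 0 to 23 without any other 1 library. Between LT and HT at W3.5 it differed in 2100 of 17929 genes (11.7%). Of the genes called at LT W3.5, 826 of 2180 were among these (37.9%). For 496 of them the gene was higher in mads1 at LT and less so, or lower, at HT, and for 303 it was lower at LT and less so, or higher, at HT. The LT W3.5 libraries that chose these genes enter the interactions too, which fixes this share and these directions in part, and nothing is read from them. Over all genes the LT difference was above the HT difference in 7.22% and below it in 4.49%. The count of 2100 was 1113 to 1234 without WT_HT_W3.5 replicate 1, WT_LT_W3.5 replicate 1 or 3, or mads1_LT_W3.5 replicate 2.

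The floral regulators were among the genes whose difference depended on the setting. HvMADS6 stood at 0.553 ± 0.287 CPM in mads1 and 9.97 ± 4.36 CPM in WT at LT W2.5 (SD, n = 3 each), a log2 fold change of -4.13 (SE 0.43, edgeR's adjusted p = 3.8e-04), where the difference at LT W3.5 was -0.14. The change between the stages was 3.99 (SE 0.45, edgeR's adjusted p = 0.0083). HvMADS3 and HvMADS58 were lower in mads1 at HT W3.5, at 4.28 ± 1.08 against 9.25 ± 0.427 CPM in WT and 3.07 ± 0.802 against 6.12 ± 0.914 CPM in WT (SD, n = 3 each). The LT difference exceeded the HT difference by 1.55 for HvMADS3 (SE 0.28, edgeR's adjusted p = 0.0053) and by 1.86 for HvMADS58 (SE 0.31, edgeR's adjusted p = 0.0031).

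The clock genes differed between temperatures in both directions. CCA1 was lower in mads1 at both, with 135 ± 36.0 CPM in mads1 against 354 ± 24.8 CPM in WT at HT W3.5 (SD, n = 3 each), and the difference at LT was smaller (interaction 0.86, SE 0.24, edgeR's adjusted p = 0.036). PRR95 read 72.0 ± 2.59 CPM in mads1 and 53.7 ± 5.36 CPM in WT at HT W3.5, higher in mads1, where at LT it was lower (interaction -1.23, SE 0.25, edgeR's adjusted p = 0.0089). LUX1 (HORVU3Hr1G114970), of the evening complex, read 10.8, 6.20 and 9.03 CPM in mads1 and 5.90, 9.46 and 6.31 CPM in WT at LT W3.5, and was not called. At HT W3.5 it stood at 60.6 ± 6.54 CPM in mads1 and 18.05 ± 2.66 CPM in WT, and the interaction was -1.44 (SE 0.29, edgeR's adjusted p = 0.0081). The CCA1 interaction was lost in 9 of 12 fits without 1 library (edgeR's adjusted p up to 0.113), while those of PRR95 and LUX1 were called in all 12.

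Genes that differ between the stages are set here beside the genotype calls. In mads1 at HT, from libraries that this comparison does not use, 3512 genes were called between W3.5 and W2.5 (20.4%), 10.4% higher and 9.99% lower at W3.5. Of the genes that were higher at W3.5 there, 1713 were tested at LT W3.5, where 251 were lower in mads1 (14.7%) and 112 higher (6.54%). Of the genes that were lower at W3.5, 1699 were tested, where 317 were higher in mads1 (18.7%) and 66 lower (3.88%). Genes in neither set were higher in 5.74% and lower in 4.55% of 13946 cases. Without mads1 replicate 1 the shares were 24.6% lower in the first set and 40.9% higher in the second, against 20.7% and 20.6% of all genes. The part of developmental stage in the other results was not tested.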

How the data were processed

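TruSeq RNA v2 libraries were made from RNA of pooled spikes, per the labels' protocols. HISAT2 and HTSeq were used, per the submitters' processing notes; versions, build, annotation and use of strand are not stated there, so overlapping or near-identical genes are uncertain. The deposited counts are whole reads per identifier, not normalized. The deposited FPKM values are these counts over a fixed length and the library total (largest relative difference 9.92e-08), hence no independent measurement. The 6 libraries were fitted with edgeR 4.0.16 (R 4.3.3): filterByExpr, TMM scaling, a quasi-likelihood F test and Benjamini-Hochberg adjustment over 17358 genes, with calls at adjusted p below 0.05. An SE is the log2 change divided by the root of F. CPM levels are TMM-scaled within each comparison's libraries. Interactions used 12 libraries each. Totals of 16210220 to 19836860 reads set the precision. No library repeated another, since replicates were 2.56 to 23.9 times sampling noise apart. The script was tested on simulated data.

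Members, lists and the naming rule were chosen with earlier results of these data known. The rule gave full values for called members of the 3 lists, the SEPALLATA, AGL6 and APETALA1 groups and the 2 most abundant of each list. Values of VRS1 were added after they were seen. Of identifiers without a name it took the largest change per direction among called, non-overlapping genes with at least 5 CPM in the higher genotype, then in both. Alternatives were RLE or no scaling factors, other filters, DESeq2 1.42.0, robust fits, a replicate block, limma 3.58.1 on log2(FPKM + 1 or 0.1), the spread of 24 or 23 libraries, and leaving out each library.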

Additional observations from a re-analysis of the deposited data

Results flagged for a closer look

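Of the 35 named genes tested at LT W3.5, 16 differed between settings in the genotype difference, by a test of the difference itself. All 16 did so for temperature, and HvMADS6 for stage as well. Over all genes, the temperature test called 11.7% and the stage test 0.158%. The named genes were chosen with earlier results of these data known, so nothing is read from the count. Values are the log2 fold change of mads1 over WT at LT W3.5 minus that in the other setting, with adjusted p by edgeR in brackets. Against LT W2.5, HvMADS6 was at 3.99 (0.0083), a call that held in 11 of 12 fits without 1 library.

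Against HT W3.5, 5 list members and both identifiers that fell held in all 12 such fits: HvMADS58 at 1.86 (0.0031), HvMADS3 at 1.55 (0.0053), HvMADS6 at 0.63 (0.014), LUX1 at -1.44 (0.0081), PRR95 at -1.23 (0.0089), HORVU6Hr1G018030 at -3.42 (0.0026) and HORVU7Hr1G080070 at -1.81 (4.4e-04). Both identifiers were chosen as the largest falls at LT W3.5, and the libraries of that choice enter this test. The choice thus fixes their values in part, and nothing is read from them. HvMADS7 was at 1.44 (0.021, called in 8 of 12), FT2 at 0.68 (0.026, in 7) and HvMADS8 at 0.78 (0.027, in 5). CEN was at 1.51 (0.034) and PRR59 at -1.29 (0.034), each called in 4 of 12. HvMADS1 was at 3.46 (0.042) and CCA1 at 0.86 (0.036), each in 3, and HvMADS32 at 0.36 (0.046) and ELF3 at -0.31 (0.048), each in 2.

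At HT W3.5 HvMADS1 read 0, 0.339 and 13.7 CPM in mads1 and 61.0, 62.9 and 66.5 CPM in WT. Its value against HT was 8.02 without replicate 3 of that mutant group and 2.86 or more in the other 11 fits. HvMADS6 kept 14.4 ± 0.522 CPM in mads1 against 23.96 ± 2.15 CPM in WT at HT W3.5 (SD, n = 3 each). CEN, of the TERMINAL FLOWER1 family that delays flowering, stood at 25.0 ± 5.99 CPM in mads1 and 29.7 ± 2.53 CPM in WT at LT W3.5, and at 3.89 ± 0.925 CPM in mads1 and 12.96 ± 6.22 CPM in WT at HT W3.5 (SD, n = 3 each).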

How the results depend on the processing

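With the spread taken from all 24 libraries, 445 genes were called at LT W3.5, 313 higher and 132 lower, and HvMADS1, HvMADS58, CCA1, PRR95 and FT2 were not (adjusted p by edgeR 0.11 to 0.95). Without 1 library at a time the count ran from 613 to 7276, with 360 to 3626 higher and 253 to 3650 lower. Other settings stayed within 1.5 times of 2181: 2214 with RLE scaling, 2401 with library totals, 2579 without a filter, 2137 with a 1 CPM filter, 2486 by DESeq2, 2275 by robust fits, 2615 with 23 libraries (HvMADS15 among them, HvMADS1 and HvMADS58 not), and 2302 and 2261 by limma, where 42.1% and 42.5% were higher.

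The stage interaction gave 88 genes without a filter (46 above 0, 42 below), 211 by DESeq2 (114 and 97), 85 with 23 libraries (44 and 41) and 2 with a replicate block (1 and 1). Without 1 library it gave 0 to 1456, with 0 to 683 above and 0 to 773 below. The temperature interaction gave 1113 to 2865, with 659 to 1724 above and 447 to 1530 below, and 1209 below with 23 libraries. Genes read in mads1 and not in WT numbered 76 at 1 CPM or more, 15 at 10 CPM or more, and 26 to 28 without 1 library; the opposite numbered 2 at 1 CPM or more, and 0 to 2 without 1 library. HT W2.5 gave 1697 calls without WT replicate 3. Chosen after seeing the data was the fit without mads1 replicate 1 for stage-moving genes, at 24.6% and 40.9%. Without 1 library, the log2 fold change of HvMADS16 ran from -0.24 to 0.023, above 0 without mads1 replicate 1, and that of HvMADS7 from -0.060 to 0.28, below 0 without mads1 replicate 3. The causes were not tested.

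Whether replicate numbers pair the samples was not settled by these data. The same-number correlations of deviations were 0.149, 0.0510 and 0.00951. Replicates 1 and 2 of mads1 correlated best with the WT replicate of the same number, and replicate 3 with WT replicate 2 (0.122). With a replicate block 1982 genes were called, 1046 higher and 936 lower, 1738 of them shared; PRR95 was not (edgeR's adjusted p = 0.0524) and VRS2 was, the only changes among the named list members. Of 595 values for named genes at LT W3.5, 542 kept direction and call, 27 lost the call, 24 gained it and 2 reversed.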
